A study of Mus musculus with 6 samples.

Results

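The genes described here are those of MHC class II antigen presentation. They were chosen by name, with no measured value in the rule, and comprised H2-Aa, H2-Ab1, H2-Eb1, H2-DMa, H2-DMb1, Cd74 and Ciita. Earlier results of these data were known when they were chosen, so the shares over all rows given below are a description. All 7 had a row among the 23473 RefSeq rows of the expression table, and all 7 passed the filter on low values, which left 12320 rows tested. Bulk RNA-seq had been carried out on tumor endothelial cells (TECs) from Lewis lung carcinoma (LLC) tumors, a transplanted mouse lung cancer, grown in C57BL/6 mice labelled as 8 weeks old. The control group (Ctrl, n = 3) was labelled wild type. In the other group (NICeCA, n = 3) a tamoxifen-inducible Cre driven by the Cdh5 promoter (Cdh5-Cre ERT2), which is active in endothelium, switched on the Notch1 intracellular domain from the Rosa26 locus and thereby Notch signaling. Whether the Ctrl mice carried the Cre or received tamoxifen was not given in the labels. The comparison asked how the class II presentation genes differed between the TEC libraries of the 2 groups. These libraries also held macrophage RNA at high levels, as given with the markers below, so a difference need not lie in the endothelial cells.

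MHC class II molecules display peptides from engulfed or extracellular protein to CD4 T cells. An alpha and a beta chain are assembled in the endoplasmic reticulum on the invariant chain (Cd74), which blocks the peptide groove and directs the complex to endosomes. Proteases degrade the invariant chain there, and the H2-DM heterodimer exchanges its last fragment for antigenic peptide. The chain genes are transcribed when the RFX, CREB and NF-Y factors on their promoters recruit the coactivator Ciita, whose own gene is driven by separate promoters in dendritic cells and B cells and by an interferon-gamma responsive promoter in other cells. Macrophages, dendritic cells and B cells are the usual carriers, and endothelial cells can acquire class II under interferon-gamma.

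The promoters are shown because the members share a common activator. The RefSeq promoter table (GRCm38.p6) held entries for 4 of the members whose promoters were examined, H2-Aa, H2-Eb1, H2-DMb1 and H2-DMa. The 150 bases before each start are given 5′ to 3′ on the gene's own strand, and the capitals mark GNAAC and, further on, ATTGG, the reverse complement of the NF-Y letters CCAAT.
H2-Aa, chr17:34287824-34287973, minus strand: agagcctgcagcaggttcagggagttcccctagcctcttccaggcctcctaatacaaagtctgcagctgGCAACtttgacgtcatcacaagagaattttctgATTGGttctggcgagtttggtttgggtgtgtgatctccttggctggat
H2-Eb1, chr17:34305717-34305866, plus strand: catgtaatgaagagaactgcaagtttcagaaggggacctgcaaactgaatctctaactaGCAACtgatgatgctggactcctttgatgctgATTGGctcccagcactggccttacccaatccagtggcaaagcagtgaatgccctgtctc
H2-DMb1, chr17:34153041-34153190, plus strand: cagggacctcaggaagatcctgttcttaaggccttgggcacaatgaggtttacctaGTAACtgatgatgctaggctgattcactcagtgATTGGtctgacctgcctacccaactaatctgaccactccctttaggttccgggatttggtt
H2-DMa, chr17:34122682-34122831, plus strand: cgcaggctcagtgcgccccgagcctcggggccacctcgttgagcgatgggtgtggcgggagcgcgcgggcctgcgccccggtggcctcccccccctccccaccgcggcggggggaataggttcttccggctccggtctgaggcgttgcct

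The letter pair stood in the same arrangement in 3 of these 4 genes, with a gap of 28 bases in H2-Aa, 27 in H2-Eb1 and 28 in H2-DMb1, and ATTGG began 48, 59 and 61 bases before the start. In all 3 ATTGG was preceded by TG. Neither entry of H2-DMa held the pair. Among all 32851 promoters of the table, 2.98% held GNAAC followed after 15 to 35 bases by ATTGG on either strand of the 250 bases before the start, 7.23% held TGATTGG and 33.8% held CCAAT, letters that lie inside the TGATTGG and GNAAC patterns. The pattern AGNNACANNTG, also searched on both strands, was in 4.41% of all promoters and in none of the 4 members. The pair and TGATTGG were chosen after the sequences had been seen. The pair was also held by H2-Oa, H2-Ob and H2-Eb2, whose levels are given with the other class II chains below, and not by H2-DMb2. A match describes letters and not a bound site.

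Every class II presentation gene had a lower mean level in the NICeCA than in the Ctrl libraries. The 7 fold changes were between -1.35 (Ciita) and -0.58 (H2-DMa) on the log2(RPKM + 1) scale, where RPKM is the read number scaled by transcript length and by library size. The median was -1.10, against -0.05 over all 12320 rows tested. Cd74 and Ciita were called lower (limma, two-sided, Benjamini-Hochberg adjusted p under 0.05), which is 2 of 7 members, while 7.68% of all rows were called lower. No member was called higher (0 of 7), against 5.88% of all rows. At an unadjusted p under 0.05, 6 of the 7 were lower, against 21.1% of all rows. In 6 of 7 members every Ctrl library lay above every NICeCA library, an arrangement found in 24.4% of all rows, and no member showed the opposite arrangement, found in 16.5%. The samples are bulk RNA, so fewer cells that express class II and less class II RNA per cell cannot be told apart. The methods describe 3 pairs of mice, 1 of each genotype, without tying a pair to a replicate number, and the p-values measure the spread between these libraries.

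**Figure D1:**
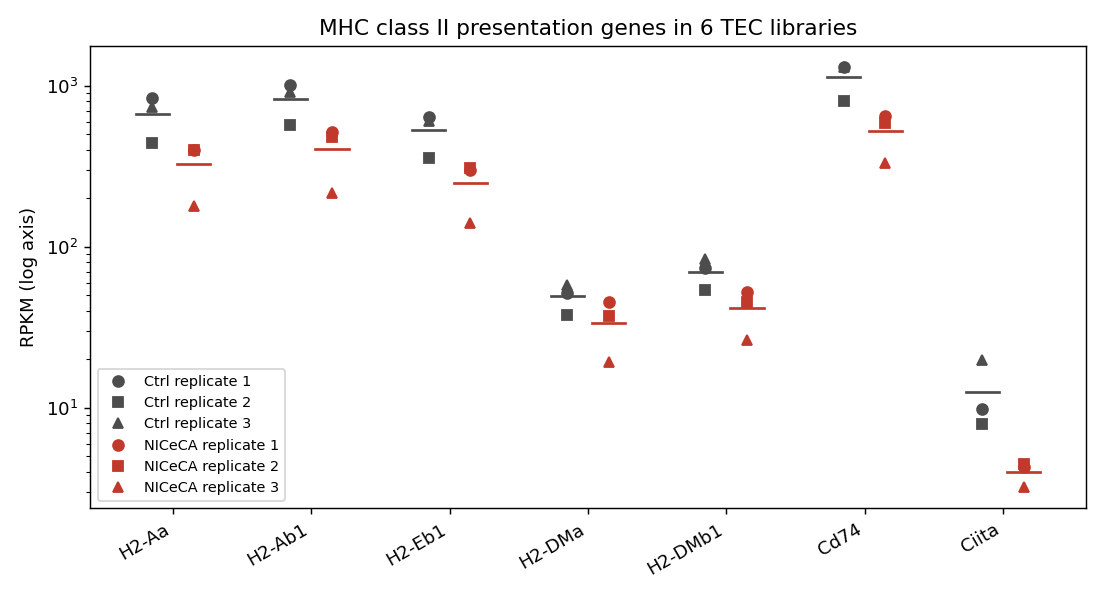
Level of each class II presentation gene in each of the 6 libraries, in RPKM on a log axis, with Ctrl in grey, NICeCA in red and bars at the group means. NICeCA replicate 3 is the lowest library for every gene, and H2-DMa is the one gene in which a NICeCA library lies above a Ctrl library.

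The 3 classical chains were among the most abundant messages in the libraries. H2-Ab1, the beta chain of the I-A molecule, was measured at 1007, 571.1 and 918.7 RPKM in Ctrl replicates 1 to 3 and at 514.0, 481.9 and 215.6 RPKM in NICeCA replicates 1 to 3. Its partner, the alpha chain H2-Aa, was at 839.9, 440.4 and 733.7 RPKM in Ctrl and at 397.5, 401.8 and 179.0 RPKM in NICeCA. H2-Eb1, the beta chain of the I-E molecule, was at 640.0, 353.9 and 607.4 RPKM in Ctrl and at 301.5, 308.2 and 140.1 RPKM in NICeCA. The groups did not overlap in any of the 3, but the gap was narrow: Ctrl replicate 2, the lowest control, stood close above the highest NICeCA library, and NICeCA replicate 3 was far below the other two. NICeCA means were 48.5% (H2-Ab1), 48.6% (H2-Aa) and 46.8% (H2-Eb1) of the Ctrl means.

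On the log2 scale the difference was -1.10 (SE 0.36, adjusted p = 0.0743 by limma) for H2-Ab1, -1.08 (SE 0.36, adjusted p = 0.0780) for H2-Aa and -1.13 (SE 0.35, adjusted p = 0.0648) for H2-Eb1. None of the 3 passed the threshold, and the 95% intervals, from -1.93 to -0.27, from -1.91 to -0.25 and from -1.93 to -0.33, did not reach 0. Each value rested on 7124 to 46897 reads per library, so counting error was small beside the spread between libraries. Group means were 832.2 ± 230.3 against 403.9 ± 163.8 RPKM for H2-Ab1, 671.3 ± 206.9 against 326.1 ± 127.4 RPKM for H2-Aa and 533.8 ± 156.6 against 249.9 ± 95.2 RPKM for H2-Eb1 (SD, n = 3 per group).

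Cd74, the invariant chain, had the highest level of the members, ranking 66 among the 12320 tested rows by mean RPKM. It was at 1306, 800.2 and 1310 RPKM in the Ctrl libraries and at 646.4, 587.8 and 331.2 RPKM in the NICeCA libraries. All 3 Ctrl values were above all 3 NICeCA values. Means were 1139 ± 293.3 and 521.8 ± 167.7 RPKM (SD, n = 3 per group), so the NICeCA mean was 45.8% of the Ctrl mean. The log2 difference was -1.15 (SE 0.30, 95% interval -1.83 to -0.46, adjusted p = 0.0443 by limma) and was called lower. The call was lost when any 1 of the 6 libraries was left out: the adjusted p was 0.0847, 0.0510 and 0.0874 without Ctrl replicates 1, 2 and 3 and 0.112, 0.136 and 0.0644 without NICeCA replicates 1, 2 and 3, and without NICeCA replicate 3 the difference was -0.85. The call was also lost with no filter on low values (adjusted p = 0.0946), with trimmed mean scaling (0.0558) and with limma voom on read numbers recovered from RPKM (0.0549). It was lost too with replicate number as a block, described below. Over 16 alternatives the adjusted p was 0.0406 to 0.136 by limma.

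Ciita, the class II transactivator, was the least abundant member and the one with the largest fold change. It was at 9.81, 7.96 and 19.8 RPKM in the Ctrl libraries and at 4.26, 4.46 and 3.22 RPKM in the NICeCA libraries, from 682 to 4386 reads. The groups were separated, with the NICeCA libraries close together and Ctrl replicate 3 well above the other controls. Means were 12.5 ± 6.34 and 3.98 ± 0.667 RPKM (SD, n = 3 per group), and the NICeCA mean was 31.8% of the Ctrl mean. The log2(RPKM + 1) difference was -1.35 (SE 0.29, 95% interval -2.03 to -0.68, adjusted p = 0.0329 by limma) and was called lower. The ratio of the mean RPKM values was 3.14-fold, and with a pseudocount of 0.1 RPKM the log2 difference was -1.53. It ranked 43 of the 12320 tested rows from the most negative fold change. Without NICeCA replicate 1, 2 or 3 the call was lost (adjusted p = 0.116, 0.114 and 0.0555), and without Ctrl replicate 1, 2 or 3 it was made (adjusted p = 0.0480, 0.0334 and 0.0207). The difference was -0.99 without Ctrl replicate 3. The call was also lost with no filter on low values (adjusted p = 0.0698), with quantile normalization (0.0516) and with replicate number as a block, described below. Over 16 alternatives the adjusted p was 0.0207 to 0.116 by limma.

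The 2 subunits of the peptide-exchange chaperone H2-DM had the smallest differences. H2-DMb1, the beta subunit, was at 73.3, 53.6 and 83.6 RPKM in Ctrl and at 52.6, 45.4 and 26.4 RPKM in NICeCA. H2-DMa, the alpha subunit, was at 51.7, 37.8 and 57.9 RPKM in Ctrl and at 45.3, 37.0 and 19.3 RPKM in NICeCA. For H2-DMb1 the lowest Ctrl library was just above the highest NICeCA library, and for H2-DMa NICeCA replicate 1 was above Ctrl replicate 2. Means were 70.2 ± 15.2 against 41.5 ± 13.5 RPKM for H2-DMb1 and 49.1 ± 10.3 against 33.9 ± 13.3 RPKM for H2-DMa (SD, n = 3 per group), that is 59.1% and 68.9% of the Ctrl mean. The log2 difference was -0.78 (SE 0.27, adjusted p = 0.0862 by limma) for H2-DMb1 and -0.58 (SE 0.30, adjusted p = 0.205) for H2-DMa. Neither was called. H2-DMb1 has a near copy, H2-DMb2, a short distance upstream, and reads that fit both may have been split between them, so the levels of this pair are uncertain.

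**Figure D2:**
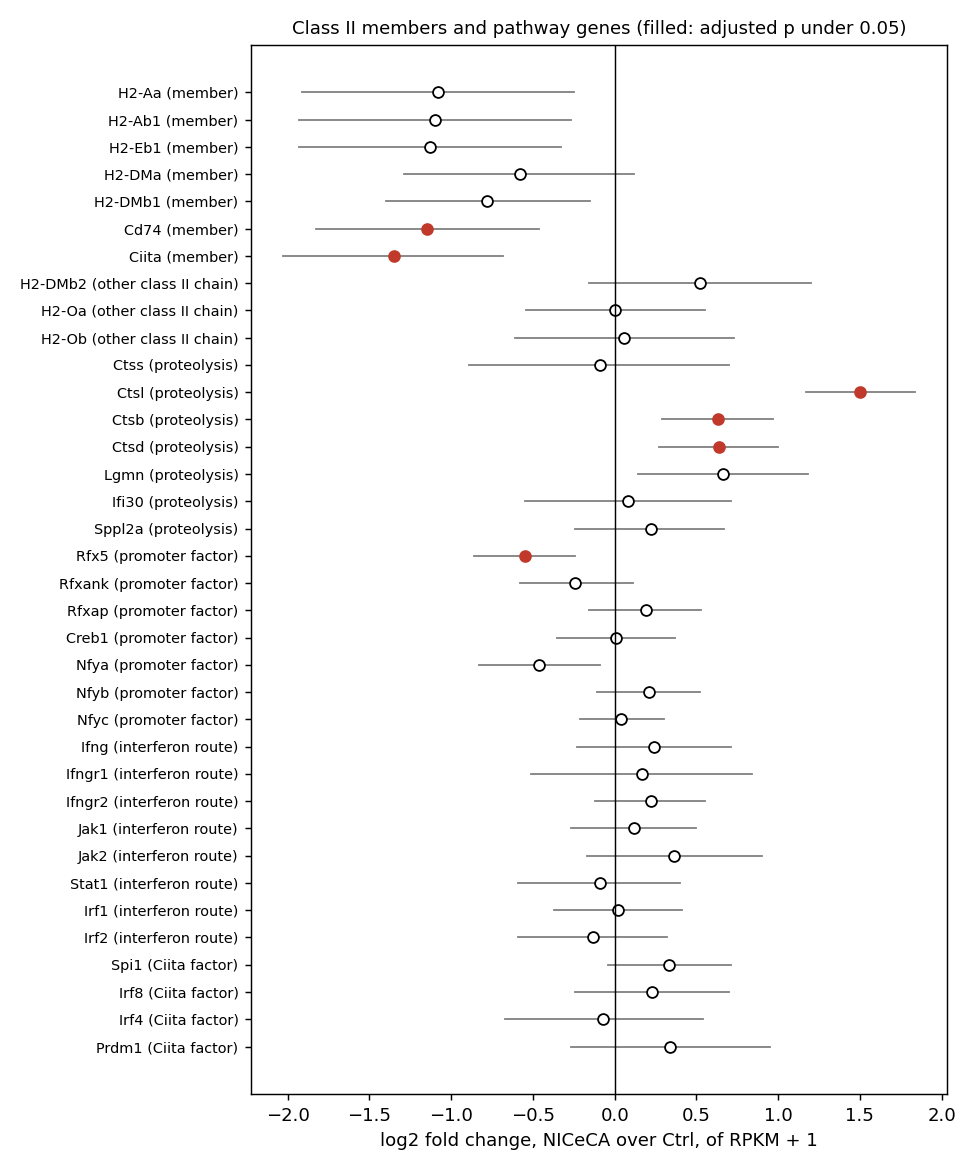
Log2 fold change of RPKM + 1, NICeCA over Ctrl, of the 7 members and of 29 tested genes of the class II pathway lists, with 95% intervals as lines and filled red points for genes called at an adjusted p under 0.05. The members lie between -1.35 and -0.58, and of the other genes Ctsl lies farthest from 0 at 1.5.

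Ratios within a library do not depend on how the library was scaled, so each member was divided by Cd74. The 3 classical chains kept near the same proportion to Cd74. H2-Ab1 was at 77.1%, 71.4% and 70.1% of Cd74 RPKM in Ctrl and at 79.5%, 82.0% and 65.1% in NICeCA. H2-Aa ranged over 55.0% to 64.3% in Ctrl and 54.0% to 68.4% in NICeCA, and H2-Eb1 over 44.2% to 49.0% and 42.3% to 52.4%. The NICeCA values surrounded the Ctrl values in all 3, with log2 differences of the ratio of 0.05, 0.07 and 0.01 (exact permutation test, two-sided, 20 assignments, p = 0.8, 0.7 and 0.9).

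The H2-DM subunits stood higher relative to Cd74 in NICeCA. H2-DMa was at 3.96%, 4.73% and 4.42% of Cd74 in Ctrl and at 7.01%, 6.29% and 5.83% in NICeCA. H2-DMb1 was at 5.61%, 6.70% and 6.38% in Ctrl and at 8.14%, 7.73% and 7.97% in NICeCA. The groups did not overlap in either. The log2 differences of the ratio were 0.55 and 0.35, each with an exact permutation p of 0.1, the smallest that 3 against 3 libraries allow, and 0.3 after adjustment over the 6 ratios, so the design cannot place them past the threshold. Ciita was at 0.751%, 0.995% and 1.51% of Cd74 in Ctrl and at 0.659%, 0.759% and 0.971% in NICeCA, with overlapping groups (log2 difference -0.40, exact permutation p = 0.3, adjusted p = 0.6).

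**Figure D3:**
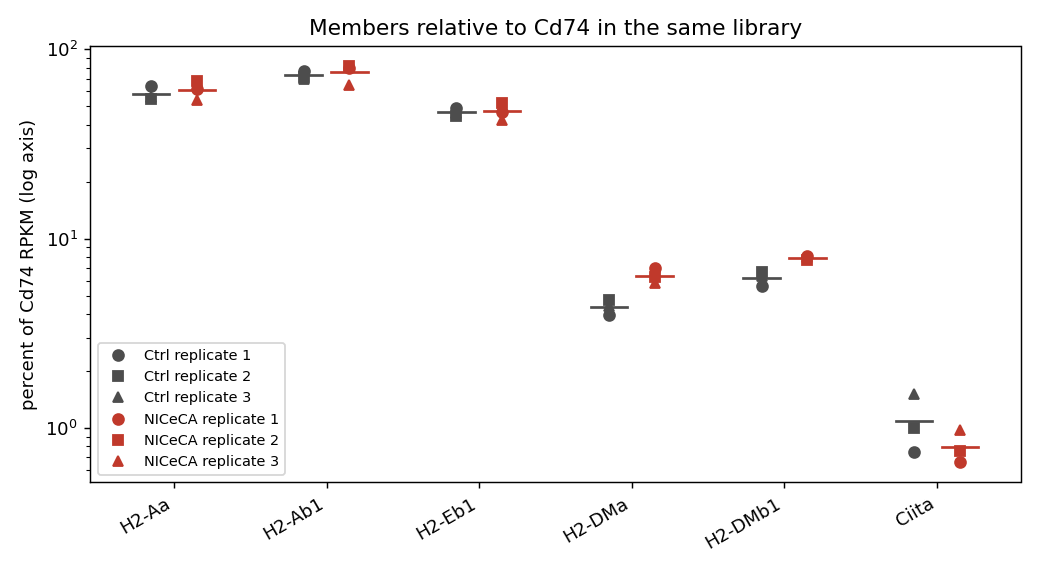
Members as a percent of the Cd74 RPKM of the same library, on a log axis, with bars at the group means. The classical chains overlap between Ctrl (grey) and NICeCA (red), and both H2-DM subunits are higher in every NICeCA library than in any Ctrl library, H2-DMa at 5.83% to 7.01% against 3.96% to 4.73%.

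The other class II chains were far less abundant and did not share the direction of the members. H2-DMb2 was at 5.25, 4.41 and 11.4 RPKM in Ctrl and at 11.3, 8.25 and 9.84 RPKM in NICeCA (log2 difference 0.52, SE 0.29, 95% interval -0.16 to 1.20, adjusted p = 0.238 by limma). H2-Oa and H2-Ob, the subunits of the H2-DM inhibitor H2-O, were at 1.54 to 3.20 and at 1.31 to 3.76 RPKM over the 6 libraries. Their log2 differences were 0.00 (95% interval -0.54 to 0.55) and 0.06 (95% interval -0.61 to 0.73). H2-Eb2, an E beta relative, lay at 0.14 to 0.50 RPKM and was not tested. H2-Ea-ps, the E alpha pseudogene of the C57BL/6 haplotype, had 0 to 3 reads per library. Mice of that haplotype make no E alpha chain, the partner of H2-Eb1 in the I-E molecule. None of the 3 tested genes was called, against 5.88% of all rows called higher and 7.68% lower.

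Among the genes that process the invariant chain and antigen, 3 of 7 were called higher and 0 lower, against 5.88% and 7.68% of all rows, with a median log2 difference of 0.63. Ctsl, which encodes cathepsin L, was at 199.6, 167.0 and 219.2 RPKM in Ctrl and at 585.1, 550.1 and 521.7 RPKM in NICeCA, so every NICeCA library was above every Ctrl library by more than the spread within either group. Its log2 difference was 1.5 (SE 0.15, adjusted p = 0.00835 by limma), and leaving out NICeCA replicate 2 brought the adjusted p to 0.0511. Ctsb and Ctsd, for the endosomal cathepsins B and D, rose by 0.63 (SE 0.15, adjusted p = 0.0373) and 0.64 (SE 0.16, adjusted p = 0.0418). The Ctsb call was lost without Ctrl replicate 2 or 3 or NICeCA replicate 1 or 2 (adjusted p = 0.0955, 0.0539, 0.133 and 0.151). The Ctsd call was lost without the same 4 libraries (adjusted p = 0.106, 0.0733, 0.141 and 0.158) and without NICeCA replicate 3 (adjusted p = 0.0597). With quantile normalization the differences were 0.32 for Ctsb and 0.38 for Ctsd, neither called, and both calls were lost with no filter on low values (adjusted p = 0.0751 and 0.0921).

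Ctss, for cathepsin S, the main protease of the invariant chain in antigen-presenting cells, had overlapping groups. It was at 1260, 621.1 and 899.3 RPKM in Ctrl and at 1083, 1032 and 519.7 RPKM in NICeCA (log2 difference -0.09, 95% interval -0.89 to 0.70, adjusted p = 0.869 by limma). Like the members, it was lowest in NICeCA replicate 3. Lgmn, for the asparagine endopeptidase legumain, was at 0.66 (adjusted p = 0.0830) and missed the threshold.

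Of the 7 promoter factors, 1 was called lower and 0 higher, against 7.68% and 5.88% of all rows, so the count over this list is near the share over all rows. Rfx5, the DNA-binding RFX subunit, was at 4.68, 6.13 and 5.12 RPKM in Ctrl and at 2.92, 3.33 and 3.64 RPKM in NICeCA. The groups were separated, and the log2 difference was -0.55 (SE 0.14, adjusted p = 0.0410 by limma). That call was lost without any 1 library other than Ctrl replicate 1, with adjusted p = 0.0943, 0.0572, 0.143, 0.155 and 0.0535 without Ctrl replicates 2 and 3 and NICeCA replicates 1, 2 and 3, and it was also lost with no filter (0.0867) and with quantile normalization (0.0728). Nfya, the NF-Y subunit that binds CCAAT, was at 10.0, 10.1 and 13.5 RPKM in Ctrl and at 6.68, 7.69 and 9.05 RPKM in NICeCA, separated but not called (-0.46, adjusted p = 0.0843). Rfxank was also separated, at -0.24 (adjusted p = 0.290), while Rfxap, Nfyb and Nfyc were at 0.19, 0.21 and 0.04 and Creb1 at 0.01. The list had a median of 0.01.

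Upstream of Ciita, 0 of the 8 genes of the interferon-gamma route passed the limma threshold and 0 had an unadjusted p under 0.05. Over all rows 5.88% were called higher and 7.68% lower, so 0 of 8 called is near the share over all rows. The folds of the 8 genes ran from -0.13 for Irf2 to 0.36 for Jak2, the receptor kinase, with a median of 0.14. Ifng, the interferon-gamma gene, was low, at 0.895 to 2.09 RPKM from 43 to 89 reads per library. Jak2 itself was at 9.89 to 20.8 RPKM in Ctrl and 18.2 to 18.6 RPKM in NICeCA, so the groups overlapped. Of the 4 myeloid and B cell factors that act on the Ciita gene, 0 passed the limma threshold and 0 had an unadjusted p under 0.05. A count of 0 of 4 called is near the same shares. Prdm1, a repressor of Ciita in plasma cells, was at 0.34 (95% interval -0.27 to 0.95) and Irf4 at -0.07 (95% interval -0.67 to 0.54).

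**Figure D4:**
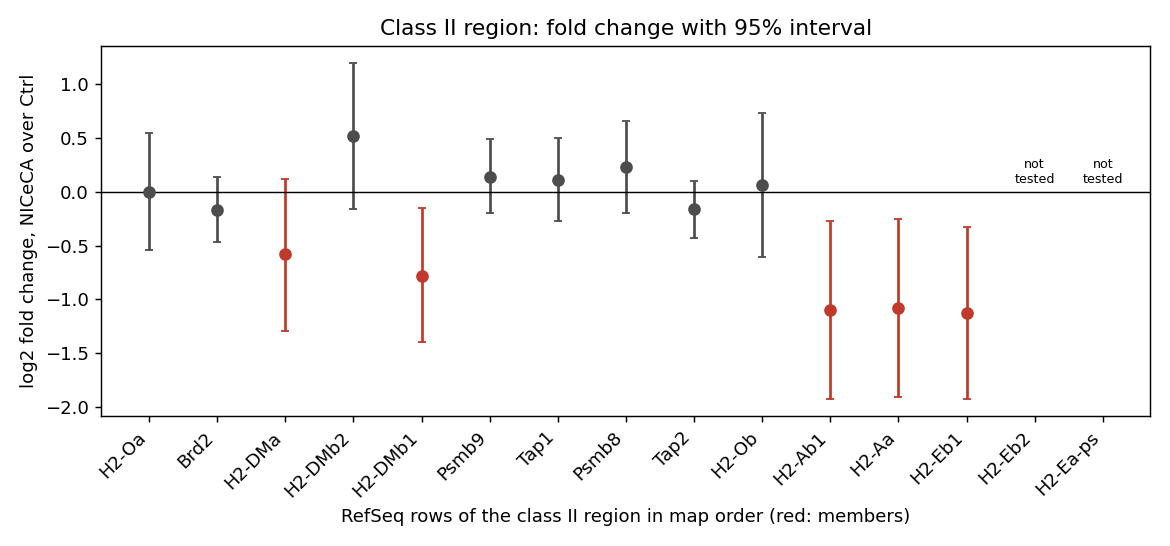
Log2 fold change with 95% interval for 13 tested RefSeq rows of the class II region of chromosome 17, among its 15 rows in map order (H2-Eb2 and H2-Ea-ps were not tested), with members in red and other genes in grey. The 5 members there lie between -1.13 and -0.58, and their tested neighbours lie between -0.17 and 0.52.

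Of the members, 5 lie in 1 stretch of chromosome 17 (GRCm38 positions 34092379 to 34344645), which held 15 RefSeq rows, 13 of them tested. H2-DMa (34122832 to 34139101, plus strand) and H2-DMb1 (34153191 to 34160229, plus strand) lie toward the H2-Oa end. H2-Ab1 (34263227 to 34269418, plus strand), H2-Aa (34282751 to 34287771, minus strand) and H2-Eb1 (34305867 to 34316674, plus strand) follow toward the other end. Between them lie Psmb9, Tap1, Psmb8 and Tap2, which make and transport peptides for MHC class I. Tap1 was at 0.11, Psmb9 at 0.14 and Psmb8 at 0.23 with overlapping groups. Tap2 was lower in every NICeCA library, at 41.9, 40.0 and 42.8 RPKM in Ctrl and 39.5, 37.4 and 34.4 RPKM in NICeCA, but its difference of -0.16 was not called (adjusted p = 0.344 by limma). Brd2, a chromatin reader gene, was at -0.17. No gene of the region was called, against 5.88% of all rows called higher and 7.68% lower. Ciita (10480072 to 10527564, plus strand) lies on chromosome 16 and Cd74 (60803849 to 60812652, plus strand) on chromosome 18.

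The members moved together across libraries. Their mean standardized profile correlated with each member at r of 0.887 (Ciita) to 0.995 (H2-DMb1) over the 6 libraries, values that each member partly makes. Outside the list the closest rows were Dusp22 (r = 0.998), Parp2 (0.987), Ppfia4 (0.984), Tap2 (0.981) and Clcn7 (0.978), and 29 rows exceeded 0.95. All 5 were separated between groups, an arrangement found in 24.4% of all rows and favoured by their choice as the rows most like the members. The differences were small: Dusp22 was at 5.44, 4.73 and 5.50 RPKM in Ctrl and 4.67, 4.51 and 3.70 RPKM in NICeCA. The log2 differences of the 5 rows were -0.24, -0.14, -0.30, -0.16 and -0.20, none called. The points share the 6 libraries and with them the split into groups.

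Markers of other cell types were checked because class II is mainly a leukocyte product. The labels call the CD31-selected cells over 90% pure, but the most abundant macrophage markers exceeded the most abundant endothelial ones. Lyz2, the lysozyme of myeloid cells, was at 2611 to 5555 RPKM and Pecam1, the gene of CD31, at 47.6 to 153.6 RPKM. Not all macrophage markers did so: Adgre1 was at 35.6 to 78.4 RPKM and Mertk at 8.22 to 23.8 RPKM. Summed over 14 macrophage and monocyte markers the level was 7177 to 10110 RPKM in Ctrl and 5519 to 9409 RPKM in NICeCA, and over 14 endothelial markers 256.7 to 650.8 and 560.3 to 729.9 RPKM. Lyz2 alone had a mean of 4317 of the 8160 RPKM of the macrophage sum in Ctrl. RPKM of different genes does not measure a share of cells. The endothelial markers had a positive log2 difference in 14 of 14, with a median of 0.66, the opposite sign to all 7 members. Over all rows 5509 of 12320 were positive. The sign was not particular to endothelial genes: all tested pan-leukocyte (4), B cell (3) and neutrophil (6) markers were positive too. Of the 14 endothelial markers, 2 were called higher, Flt1 (1.03) and Vwf (1.15), against 5.88% of all rows. Of the 14 macrophage markers 3 were called higher (Fcgr1, Cd14 and Cd68) and 1 lower (Cx3cr1), against 5.88% and 7.68% of all rows. Fcgr1, an Fc receptor gene, differed by 1.52 and Cx3cr1, a chemokine receptor gene, by -1.66. The complement gene C1qa, at 1112, 965.3 and 746.3 RPKM in Ctrl and 891.3, 776.5 and 375.1 RPKM in NICeCA, shared with the members its low value in NICeCA replicate 3. Csf1r, the macrophage growth factor receptor gene, was at 142.9, 114.5 and 159.0 RPKM in Ctrl and 143.1, 106.1 and 91.6 RPKM in NICeCA, with overlapping groups.

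Dendritic cell markers (8 of 9 tested) summed to 31.3 to 72.8 RPKM in Ctrl and 48.6 to 59.0 RPKM in NICeCA. Of the 8 tested, 6 had a positive log2 difference and 2 a negative one. Clec9a, of cross-presenting dendritic cells, was called lower at -0.80, which is 1 of 8, against 7.68% of all rows. Batf3 was at -0.63 and not called (adjusted p = 0.108 by limma), and Xcr1 was under 0.5 RPKM in every library. B cell markers (3 of 7 tested) summed to 3.51 to 14.8 RPKM and 6.995 to 18.8 RPKM, with none called by limma and none at an unadjusted p under 0.05. Over all rows 5.88% were called higher and 7.68% lower, so none of 3 is near the share over all rows. T and NK cell markers lay at 40.0 to 57.1 and 34.1 to 48.8 RPKM, and the 4 pan-leukocyte markers at 417.7 to 648.0 and 596.6 to 808.2 RPKM. Of these 4, 1 was called higher (Itgam), against 5.88% of all rows. Neutrophil markers were the one list whose summed level was higher in every NICeCA library, at 117.2 to 267.9 RPKM in Ctrl and 591.0 to 1637 RPKM in NICeCA, highest in NICeCA replicate 3, where the members were lowest. In that list 5 of 6 tested genes were called higher, against 5.88% of all rows. No marker list was lower in every NICeCA library than in every Ctrl library. The part of a changed cell mixture in the class II differences was not tested. The ratios that follow are a description and do not separate a changed mixture from a change within cells.

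When the mean log2(RPKM + 1) of a marker list was subtracted from each member within each library, a measure chosen after the values had been seen, the members lay lower in NICeCA. The macrophage list had a mean of 7.21 in Ctrl and 7.30 in NICeCA, and the dendritic cell list 2.33 and 2.32. Differences relative to these lists therefore largely repeat those of the members themselves. Relative to the macrophage and monocyte list all 7 members were separated, with differences of -1.44 to -0.67, while 4.76% of all tested rows were separated in that direction on the same scale. The markers of that list went both ways, 6 positive and 8 negative, from -1.66 (Cx3cr1) to 1.52 (Fcgr1). Its mean therefore cannot stand for a single kind of macrophage, and a shift between kinds was not tested. Cd74 stood 3.02, 2.64 and 3.05 above that list in Ctrl and 1.74, 1.83 and 1.45 above it in NICeCA. Ciita was at -3.90, -3.84 and -2.93 on this scale in Ctrl and at -5.21, -4.92 and -4.85 in NICeCA. H2-DMa, which overlapped on its own, was separated here, at -1.61, -1.72 and -1.42 in Ctrl and -2.07, -2.12 and -2.58 in NICeCA. Relative to the pan-leukocyte list all 7 were separated (-1.73 to -0.97), against 32.3% of all rows. Relative to the dendritic cell list 6 of 7 were separated (-1.34 to -0.58), against 10.5% of all rows, and relative to the endothelial list 6 of 7 (-2.10 to -1.34), against 29.8%, with H2-DMa overlapping in both. Each separated member has an exact permutation p of 0.1, the smallest possible here. NICeCA replicate 3 came closer to the other NICeCA libraries relative to the macrophage list: H2-DMb1 was then at -1.86, -1.83 and -2.15. That library still stood below the others in H2-Aa, at 1.04, 1.28 and 0.57, and in H2-Eb1, at 0.64, 0.90 and 0.22. For Ciita it was the highest NICeCA library on this scale.

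**Figure D5:**
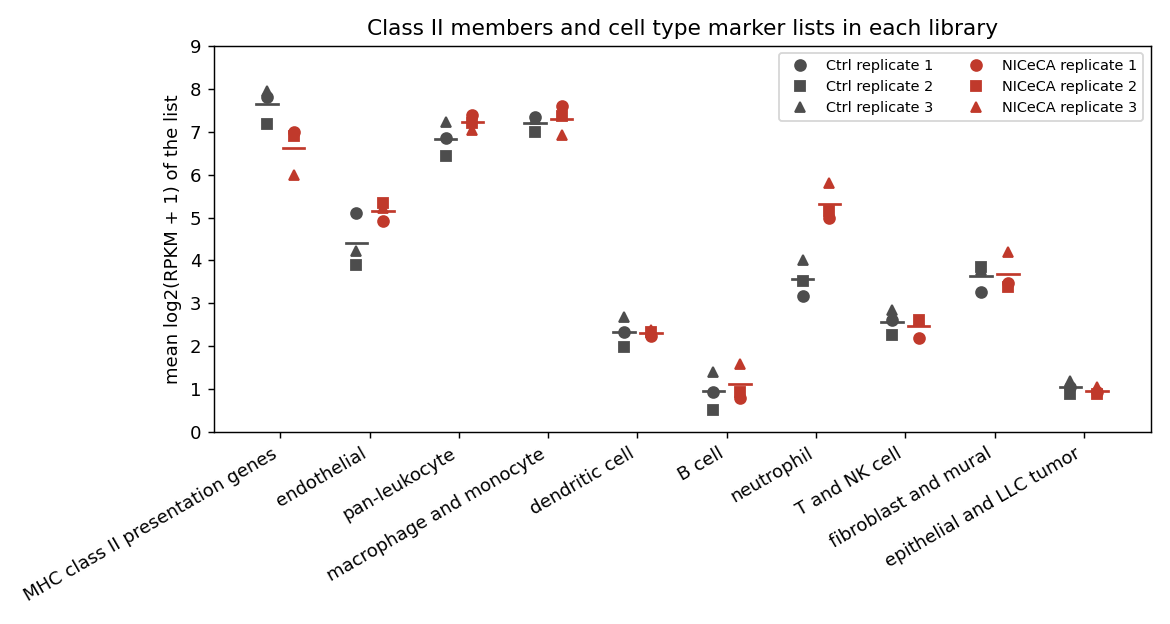
Mean log2(RPKM + 1) of the 7 class II presentation genes and of 9 lists of cell type markers in each library, with Ctrl in grey, NICeCA in red and bars at the group means. The class II genes are the list in which every NICeCA library lies below every Ctrl library, the neutrophil list has the opposite arrangement, and the other lists overlap.

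Depth on RefSeq rows ranged from 27793301 to 30769916 reads per library, and the ribosomal row Rn45s took 1.9% to 6.4% of them in Ctrl and 0.8% to 1.9% in NICeCA. As a check of the activation, the Notch target Hey1 was at 5.55, 2.69 and 2.78 RPKM in Ctrl and at 6.05, 10.7 and 9.91 RPKM in NICeCA. It was called higher (log2 difference 1.10, adjusted p = 0.0412 by limma). Pecam1 was at 134.7, 47.6 and 82.6 RPKM in the same Ctrl libraries and at 125.0, 153.6 and 141.6 RPKM in NICeCA. Hey1 alone therefore cannot tell Notch activation apart from a larger endothelial share of the RNA. Notch1 itself was at 8.19 to 14.3 RPKM in Ctrl and 12.3 to 13.6 RPKM in NICeCA (0.11, adjusted p = 0.713).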

How the data were processed

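Sample titles and column labels gave each library's group and number. The authors deposited RPKM values for 56826 rows (23473 RefSeq, the rest FANTOM3), and the submitters' processing notes name TopHat2 as the aligner. The build named there is mm9, but 99.3% of the RefSeq rows matched by symbol overlapped their GRCm38 place, so positions are given on GRCm38. How reads were counted, and whether by strand, was not stated in the labels, methods or headers.

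Log2(RPKM + 1) of RefSeq rows with a mean of at least 1 RPKM was compared with limma 3.58.1 under R 4.3.3 (moderated by eBayes along the mean-variance trend, two-sided, Benjamini-Hochberg over all 12320 rows, adjusted p under 0.05). The fit was also run on simulated reads, drawn independently for each gene, and the outcome is not given here. That simulation held no shift shared by many genes of a library, so it cannot speak to such shifts. Ratios were compared by exact permutation tests, whose smallest two-sided p is 0.1. RPKM times row length gave whole reads, within 0.05, for 100.0% of values under 1000 reads, so counting depth is known. The members, the pathway lists and the marker lists were chosen with earlier results of these data known. The rule for naming took all members, called pathway genes, other class II chains, the ends of each pathway list, the leading and the lowest markers and the 5 rows most like the members. Other genes were named after their values were seen. Rfx5 was not tested at a mean of at least 5 RPKM. A spreadsheet had turned the names of 27 rows into dates.

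The comparison was repeated with a replicate block, without each library, with a pseudocount of 0.1, without a filter, with a minimum mean of 5 RPKM, quantile normalization, trimmed mean scaling, limma without the trend, limma voom on the recovered reads and an adjusted p under 0.1. Inclusion of FANTOM3 rows, marker-list ratios and the alternatives of the called pathway genes were added after seeing the data. Promoters came from RefSeq (GRCm38.p6).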

Additional observations from a re-analysis of the deposited data

How the results depend on the processing

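The 7 members kept a negative fold change in 112 of 112 combinations of member and alternative, with the smallest differences for H2-DMa (-0.83 to -0.24). Many of these signs were fixed in advance. The replicate block, the changed filters, limma without the trend, the adjusted p under 0.1 and the FANTOM3 rows leave a fold change as it is. Only leaving out a library, the smaller pseudocount, the scalings and voom could have turned a sign. The scalings moved the median of all rows from -0.05 to -0.02 (quantile) and 0.01 (trimmed mean, voom). Against 2 members called lower, 725 rows called higher and 946 lower, the count of members was 1 with trimmed mean scaling and with limma voom on recovered reads (Ciita in both), 0 with no filter and 6 at an adjusted p under 0.1. Leaving out 1 library gave 0 to 1 members lower, 0 to 0 higher, 17 to 911 rows higher and 1 to 832 lower. The 17 and 1 were found without NICeCA replicate 2, and 90 and 14 without NICeCA replicate 1. With quantile normalization 446 rows were higher and 325 lower, and H2-Eb1 (adjusted p = 0.0408) was called in place of Ciita. With no filter 260 were higher and 105 lower, at a mean of at least 5 RPKM 629 and 579, at an adjusted p under 0.1 1346 and 1992, and with FANTOM3 rows 1026 and 2185. Trimmed mean scaling gave 985 higher and 712 lower, and voom 960 and 794. The cause of these changes was not tested.

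With the replicate block 327 rows were higher and 209 lower and 0 members were called (Cd74 adjusted p = 0.0718, Ciita 0.0515, H2-Eb1 0.0916), and the calls of Ctsb (0.0852), Ctsd (0.0881) and Rfx5 (0.0757) were lost. Libraries of the same number correlated at 0.12, -0.34 and -0.18 in their deviations from the group means, and those of different numbers at -0.32 to 0.44. Not every library correlated best with its own number. With 3 libraries per group these values cannot settle whether the numbers mark the pairs of mice. The ratio of H2-Eb1 to Cd74 turned from 0.01 to -0.02 without Ctrl replicate 2 and to -0.07 without NICeCA replicate 2, where those of H2-Aa and H2-Ab1 turned to -0.02 each (exact permutation p = 0.9, 0.5, 0.9 and 1.0). Without NICeCA replicate 3 the ratio differences were 0.15 (H2-Aa), 0.15 (H2-Ab1) and 0.09 (H2-Eb1). Ctsl was called in 15 of 16 alternatives, Ctsb in 9, Ctsd in 8 and Rfx5 in 7 of 15. These counts include the adjusted p under 0.1, which keeps every call of the main fit. Every member had at least 682 reads in each library, so the spread between 3 libraries, and not depth, limits these comparisons.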

Other observations

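Reads at the members also filled other rows. Mir5107, a microRNA row inside Cd74, was at 104.2 to 155.4 RPKM in Ctrl and 36.3 to 61.0 RPKM in NICeCA (log2 difference -1.32, adjusted p = 0.0223 by limma), and it cannot be told apart from its host. A FANTOM3 row that overlaps H2-Aa on the same strand was at 247.4, 124.5 and 228.8 RPKM in Ctrl and 113.9, 115.1 and 53.5 RPKM in NICeCA, with the libraries in the same order as for H2-Aa.

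The ubiquitin ligases Marchf1 and Marchf8, which remove class II from the cell surface, were named after their values had been seen and were found by position, since their names had become dates. Marchf1 was at 9.77, 7.07 and 11.6 RPKM in Ctrl and 13.2, 11.5 and 7.28 RPKM in NICeCA (log2 difference 0.14, 95% interval -0.40 to 0.69, adjusted p = 0.692 by limma). Marchf8 was at 14.4 to 16.2 RPKM in Ctrl and 12.02 to 12.96 RPKM in NICeCA, separated between groups but not called (-0.25, adjusted p = 0.153).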
